A study of Mus musculus with 3 samples.

Results

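The CD4 and CD8 coreceptor genes and the transcription factors that decide between the CD4 and CD8 lineages were examined as a set of 9 genes, taken by symbol from the 44788 genes of a deposited count table. All 9 were listed: the coreceptors Cd4, Cd8a and Cd8b1, the lineage factor Zbtb7b (ThPOK), the Runt factors Runx1, Runx2 and Runx3, their shared partner Cbfb, and Patz1 (MAZR). RNA had been sequenced from 3 libraries of splenic T lymphocytes of female BALB/c mice, 6 to 8 weeks old, bead-isolated through CD90.2 (Thy1) and kept for 15 h in culture with LZ-8, an immunomodulatory protein from the fungus Ganoderma lucidum. The 3 libraries were replicates of this one treatment. All comparisons are therefore between genes within a library or between the replicates, and none measures an effect of LZ-8. Separate animals or cultures for the replicates are not stated, and p-values between libraries may measure technical spread only. The cells were a mixture of T lymphocytes, so for every gene below a smaller share of cells carrying it and less RNA per cell cannot be told apart.

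As background, CD4 and CD8 are the coreceptors that bind MHC class II and class I molecules beside the T cell receptor and bring the kinase Lck to it. A mature T cell normally keeps only one of them. CD8 on most T cells is a pair of an alpha chain (Cd8a) and a beta chain (Cd8b1). ThPOK drives the CD4 helper lineage, and Runx3 drives the CD8 lineage by acting on silencer elements of the Cd4 and Zbtb7b genes. Runx factors bind DNA together with CBF-beta, the product of Cbfb, which does not bind DNA itself. Patz1 is a zinc finger protein known in thymocytes as a repressor of the Cd8 genes and of Zbtb7b.

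The Runt factors recognise the motif TGTGGT, which reads ACCACA on the other strand. The promoter windows of the 9 genes were searched for it on both strands. Only this exact spelling was searched, so the counts and absences below do not cover variants of the motif. The windows came from RefSeq (build GRCm38.p6, 250 bases before to 50 bases after an annotated start), which held 11 windows for 7 of the 9 genes; Cd4 and Cd8b1 had none. The motif occurred in 4 of the 11 windows, against 16.8% of all 32851 windows. At least 2 copies occurred in 3 of the 11, against 1.81% of all windows. Those 3 were the upstream windows of Runx1, Runx2 and Runx3, and in each the copies lay side by side in the same arrangement. They are shown for that shared pair, with 30 bases on the coding strand of each gene and the motif copies in capitals. The Runx1 stretch is chr16:92826025-92826054, minus strand, the Runx2 stretch chr17:44814583-44814612, minus strand, and the Runx3 stretch chr4:135120503-135120532, plus strand.
Runx1: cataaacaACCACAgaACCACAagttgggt
Runx2: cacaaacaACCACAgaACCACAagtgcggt
Runx3: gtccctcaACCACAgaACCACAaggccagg

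The paired arrangement ACCACAgaACCACA, a search chosen after these windows were seen, occurred in 4 of the 32851 windows (0.0122%). Besides the 3 Runx windows the fourth belonged to Gm16225, an opposite-strand gene whose window overlaps that of Runx3 and holds the same bases. The pair began 134 bases before the annotated start in Runx3, 29 bases inside the transcript in Runx1 and 24 bases inside it in Runx2. Runx2 had another copy 80 bases before its RefSeq start. In the GENCODE vM21 annotation the Runx2 gene begins further upstream, at position 44814797, so this copy lies within the gene there. The downstream windows of Runx1 and Runx3 held no copy, and the deposited counts are per gene and do not separate transcripts of the upstream and downstream starts. The whole upstream part of the Runx3 window (chr4:135120395-135120644, plus strand) is given for the context of its pair.
Runx3: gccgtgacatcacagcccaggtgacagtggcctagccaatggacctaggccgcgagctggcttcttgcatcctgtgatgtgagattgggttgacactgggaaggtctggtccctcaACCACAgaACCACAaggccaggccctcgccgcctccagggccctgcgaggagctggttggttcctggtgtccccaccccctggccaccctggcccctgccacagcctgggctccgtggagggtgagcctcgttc

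Among the other members the motif was found in 1 of the 2 windows of Zbtb7b, 89 bases before the start, and in none of the windows of Cd8a, Cbfb and Patz1. The upstream part of that Zbtb7b window (chr3:89387672-89387921, minus strand) is shown because it holds the single copy. A match describes letters in the window and is not evidence of binding in these cells.
Zbtb7b: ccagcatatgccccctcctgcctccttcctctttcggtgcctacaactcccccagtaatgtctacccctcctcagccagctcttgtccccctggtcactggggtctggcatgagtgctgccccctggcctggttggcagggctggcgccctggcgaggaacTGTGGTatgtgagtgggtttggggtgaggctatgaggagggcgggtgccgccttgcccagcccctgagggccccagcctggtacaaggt

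The libraries held 12669690 to 19041670 counts, and 13500 genes passed a minimum of 1 CPM in 2 or more libraries, all 9 members included. A level in CPM is the number of the gene's reads among 1000000 reads of its library. Together the 9 genes stood at 956 ± 5.26 CPM (SD, n = 3), and their median was 87.9 CPM, against 27.0 CPM for the median tested gene. A count of 0 allows up to 0.158 to 0.237 CPM in the libraries, and such limits and the intervals below cover counting error only. The T cell label was met by Cd3e, Cd3d, Cd3g, Cd247, Lck, Zap70, Lat and Thy1, all 8 of which were above 100 CPM. Of 27 markers of other cells that can carry CD4 or CD8, or could accompany splenic T cells, 7 had no read in any library. Of all 44788 genes, only 22914 had a read in at least 1 library, so genes without reads were common. All 4 B cell markers were above 1 CPM.

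Cd4 had the most reads of the coreceptor genes by a wide margin, and Cd8a came next. Cd4 (chromosome 6, 124864692 to 124888221) had 364, 377 and 387 CPM in replicates 1, 2 and 3, from 6937, 4776 and 5690 reads. Cd8a (chromosome 6, 71373427 to 71379173) had 144, 140 and 144 CPM, from 2748, 1770 and 2123 reads. Cd8b1 (chromosome 6, 71322788 to 71337494) had 88.0, 92.1 and 96.5 CPM, from 1676, 1167 and 1420 reads. The ranges of the 3 coreceptor genes did not overlap, and Cd4 and Cd8b1 were both lowest in replicate 1 and highest in replicate 3. Cd8b1 and Cd8a are neighbours on the same strand, with 35.9 kb between the end of Cd8b1 and the start of Cd8a. Of the reads of the 3 coreceptor genes together, Cd4 took 61.5 ± 0.44%, Cd8a 23.4 ± 0.70% and Cd8b1 15.1 ± 0.32% (SD, n = 3).

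**Figure D1:**
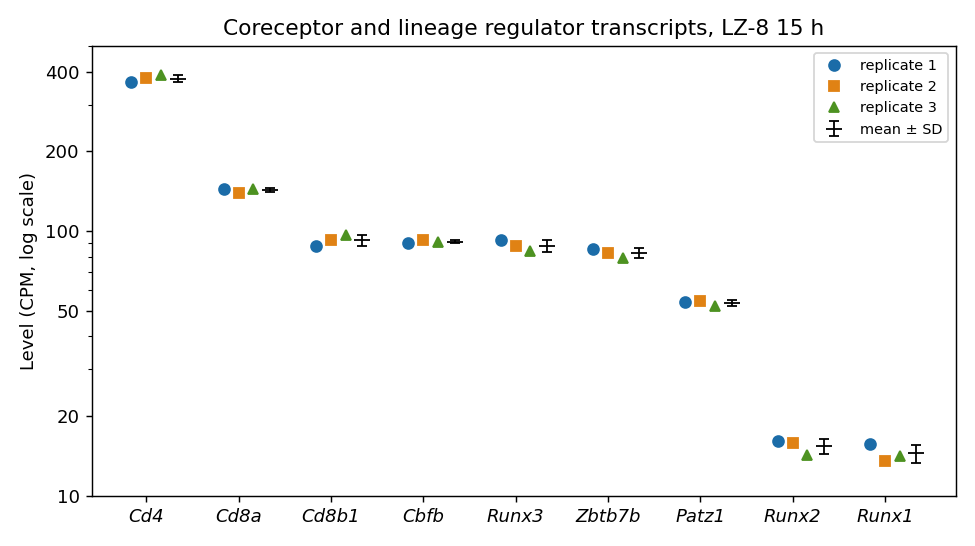
Level of each of the 9 genes in CPM (log axis) in replicates 1, 2 and 3, with the mean and SD at the right of each gene. Cd4 lies at 364 to 387 CPM, above all other members, 5 genes lie between 78.8 and 144 CPM, Patz1 at 51.9 to 54.5 CPM, and Runx1 and Runx2 at 13.5 to 16.1 CPM.

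Where reads come from along whole transcripts, a longer transcript yields more fragments, and levels of different genes can be compared only per length. Whether reads covered whole transcripts here was not tested, and the values per kilobase rest on it. Per kilobase of annotated exon (GENCODE vM21, all exons of the gene joined) the order of the CD8 chains turned round. Cd8b1, with 1.48 kb of exon, stood at 62.2 ± 2.86 CPM per kb, and Cd8a, with 3.64 kb, at 39.3 ± 0.73 CPM per kb (SD, n = 3). Cd4, with 4.03 kb, remained highest at 93.3 ± 2.78 CPM per kb. In reads Cd8a exceeded Cd8b1 1.55-fold (log2 ratio 0.63 ± 0.07), whereas per kilobase of exon the log2 ratio of Cd8a to Cd8b1 was -0.66 ± 0.07, and per kilobase of the longest annotated transcript it was -0.45. Of the reads of both CD8 chains, Cd8a held 62.1% in replicate 1, with an exact 95% interval of 60.7 to 63.6%. The share was 60.3% (58.5 to 62.0%) for replicate 2 and 59.9% (58.3 to 61.5%) for replicate 3. The log2 ratio of Cd4 to Cd8b1 was 2.03 ± 0.02 in reads and 0.58 ± 0.02 per kilobase of exon. The excess of Cd4 over Cd8a depended little on length, at 2.63-fold in reads and 2.38-fold per kilobase of exon.

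The opposing lineage factors had nearly the same number of reads, with Runx3 slightly above ThPOK in every library. Zbtb7b (chromosome 3, 89377644 to 89394776) had 85.8, 82.9 and 78.8 CPM in replicates 1, 2 and 3. Runx3 (chromosome 4, 135120652 to 135177990) had 92.4, 87.6 and 83.7 CPM. Both were highest in replicate 1 and lowest in replicate 3, and their ranges overlapped. Their ratio hardly moved: the log2 ratio of Zbtb7b to Runx3 was -0.11, -0.08 and -0.09 in the 3 libraries, with a mean of -0.09 ± 0.01. Zbtb7b took 48.2%, 48.6% and 48.5% of the reads of the pair, and of the exact 95% intervals only that of replicate 1 (46.5 to 49.9%) lay wholly below equal shares. Per kilobase of exon Zbtb7b stood at 14.8 ± 0.63 and Runx3 at 17.6 ± 0.87 CPM per kb, with ranges that did not overlap.

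Each lineage factor was set against the coreceptor of the lineage that it drives. The RNA came from a mixture of T lymphocytes, so these ratios do not measure levels within CD4 or CD8 cells. Per kilobase of exon the log2 ratio of Zbtb7b to Cd4 was -2.66 ± 0.10, with Cd4 6.32-fold higher, and that of Runx3 to Cd8a was -1.16 ± 0.08, with Cd8a 2.24-fold higher. In reads the log2 ratio of Zbtb7b to Cd4 was -2.19 ± 0.10 and that of Runx3 to Cd8a was -0.70 ± 0.08 (SD, n = 3). Both ratios were lowest in replicate 3.

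Runx3 was by far the main Runt factor transcript, and Runx1 and Runx2 were low, above only 37.0% and 38.3% of the tested genes in CPM. Runx1, which acts in thymocytes and blood stem cells and silences Cd4 in immature thymocytes, had 15.7, 13.5 and 14.1 CPM in replicates 1, 2 and 3, from 299, 171 and 208 reads. Runx2, known foremost as the regulator of bone formation, had 16.1, 15.8 and 14.2 CPM, from 306, 200 and 209 reads. Their ranges overlapped, although Runx1 had slightly fewer reads than Runx2 within each library. Of all Runx reads, Runx3 took 74.4% in replicate 1, with an exact 95% interval of 72.6 to 76.2%. The Runx3 share was 75.0% (72.7 to 77.1%) for replicate 2 and 74.7% (72.5 to 76.8%) for replicate 3. Its excess in reads was 6.08-fold over Runx1 and 5.72-fold over Runx2. Per kilobase of exon it was 14.6-fold and 10.1-fold, because Runx1 and Runx2 have 12.03 and 8.84 kb of annotated exon against 5.00 kb for Runx3, and the Runx3 share was then 85.7 ± 0.13%. With the longest annotated transcript as the length, the share was 82.4 ± 0.23% and the excess 9.17-fold over Runx1 and 9.51-fold over Runx2. The order of Runx1 and Runx2 depended on the length used: the log2 ratio of Runx1 to Runx2 was -0.09 ± 0.12 in reads, -0.53 ± 0.12 per kilobase of exon and 0.053 per kilobase of the longest transcript.

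**Figure D2:**
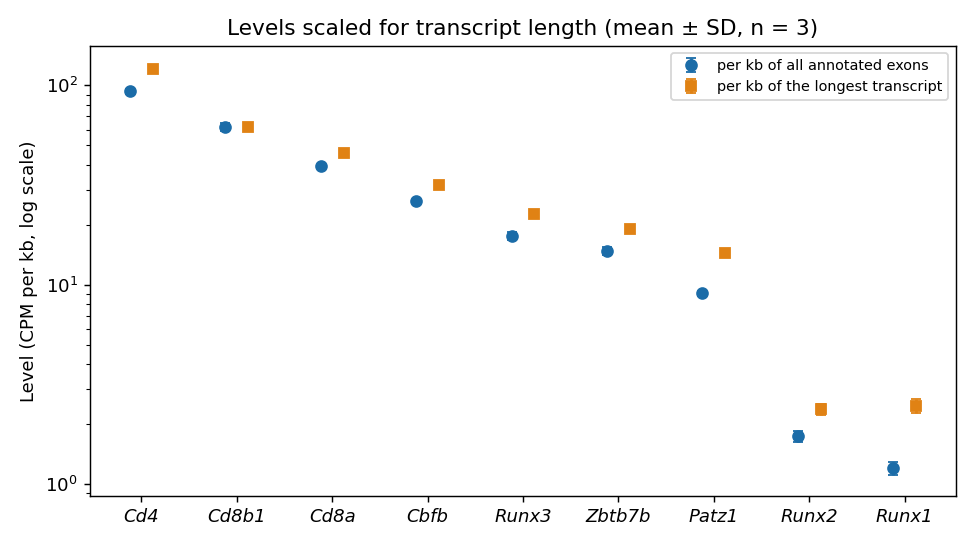
Mean level ± SD over the 3 libraries in CPM per kilobase (log axis), with the exons of a gene joined (circles) or its longest annotated transcript (squares) as the length. The order Cd4, Cd8b1, Cd8a, Cbfb, Runx3, Zbtb7b, Patz1 is shared by both scales, and Runx1 and Runx2 lie lowest, with Runx1 at 1.20 and 2.47 CPM per kb.

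Cbfb, the gene of the common Runx partner, had the most even level of the 9 genes. It stood at 90.4, 92.1 and 91.0 CPM in replicates 1, 2 and 3, a coefficient of variation of 0.96% against 2.69% expected from counting alone. Cbfb reads were fewer than the summed reads of Runx1, Runx2 and Runx3, with a log2 ratio of -0.37 ± 0.08. Scaled by exon length the ratio was positive, 0.35 ± 0.08, as it was by the longest transcript, 0.20, so Cbfb then exceeded the sum of its partners 1.28-fold and 1.15-fold. Patz1 had 53.7, 54.5 and 51.9 CPM, again with little spread. It lay below Zbtb7b, by 1.55-fold in reads and 1.63-fold per kilobase of exon, and its log2 ratio to Cd8a was -1.42 ± 0.06 in reads.

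**Figure D3:**
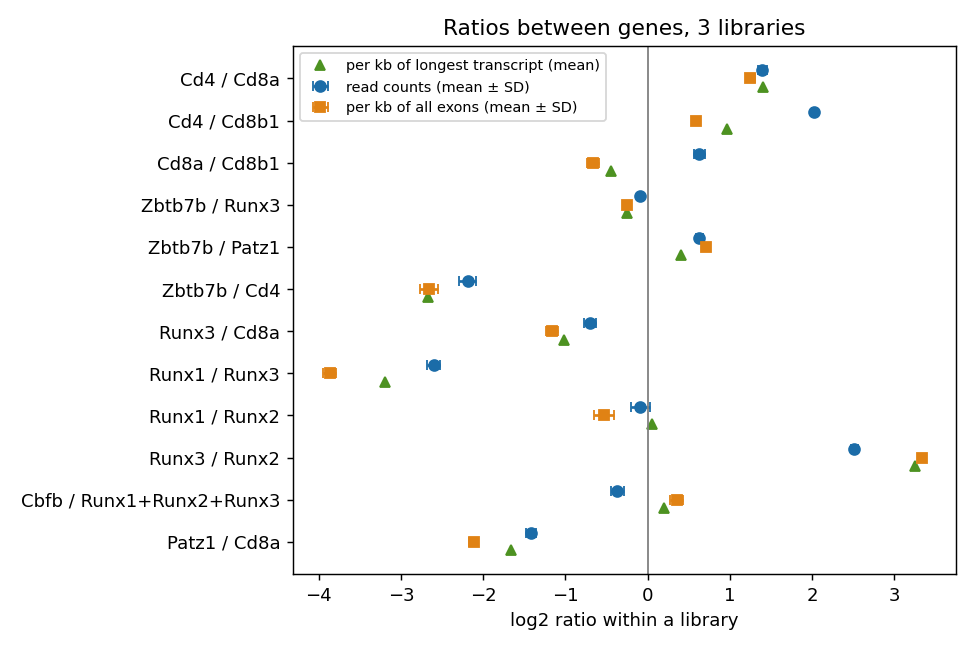
Log2 ratios between 2 genes (or a gene and the Runx sum) within a library, as mean ± SD of 3 libraries from read counts (circles) and per kilobase of all exons (squares), and as the mean per kilobase of the longest transcript (triangles). Cd8a to Cd8b1 and Cbfb to the Runx sum cross 0 between reads and both length scales, at 0.63 and -0.37 in reads.

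In order of level per kilobase of exon the genes ran Cd4, Cd8b1, Cd8a, Cbfb, Runx3, Zbtb7b, Patz1, Runx2 and Runx1, and no neighbours in that order had overlapping libraries. In CPM 4 neighbouring pairs overlapped, namely Cd8b1 with Cbfb, Cbfb with Runx3, Runx3 with Zbtb7b and Runx2 with Runx1. The smallest step per kilobase of exon, 1.19-fold, lay between Runx3 and Zbtb7b. Each of the 12 ratios between genes had the same sign in 3 of 3 libraries when taken in reads. In an exact two-sided sign-flip permutation test each gave p = 0.25, raw and adjusted over the 12, which is the smallest that 3 libraries allow, so no ratio could pass a threshold of 0.05. Set among the tested genes per kilobase of exon, Cd4 was above 95.3% of them, Cd8b1 above 92.3%, Cd8a above 86.7%, Runx3 above 70.5%, Zbtb7b above 65.9% and Runx1 above 12.4%.

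The members differed in how much of their sequence also occurs in transcripts of other genes, which can make the assignment of reads uncertain. The share of a gene's 31-base words found, on either strand, in transcripts of other genes was highest for Patz1 (10.2%), Cd8b1 (8.40%), Runx2 (6.39%) and Zbtb7b (4.28%). It was 2.51% for Cd8a, 1.44% for Runx3, 0.80% for Runx1, 0.42% for Cd4 and 0% for Cbfb. Runx1 and Runx3 shared 9 words with each other, and Runx2 shared none with either. Whether strand was used in counting is not given in the sources used here. Zbtb7b overlaps the antisense gene Gm15417, which was listed with 13, 8 and 4 reads, and Patz1 overlaps Gm11944 on its own strand, with 61, 33 and 34 reads, against 1634, 1050 and 1160 for Zbtb7b and 1022, 691 and 764 for Patz1. Other opposite-strand neighbours of Runx1, Runx2 and Patz1 share exon bases with them, so small gains or losses there are possible.

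Of the 9 genes, 1 was called as varying between the 3 libraries beyond counting noise, and this was Cd4. The test was a likelihood-ratio test in edgeR that allows counting noise only (dispersion 0), adjusted over all 13500 tested genes, of which 13.7% were called. It compares these libraries and no conditions. Cd4 had a range of 0.10 log2 units between its lowest and highest library (adjusted p = 0.0115 in edgeR). The alternatives gave an adjusted p of 0.00582 to 0.382 in edgeR, and the call was lost without replicate 1 (adjusted p = 0.382) and without replicate 3 (adjusted p = 0.294). The coefficient of variation of Cd4 was 2.98%, against 1.32% from counting alone. Among genes of at least 100 CPM, where the test is more sensitive, 33.9% were called. The other members gave adjusted p-values of 0.112 (Cd8b1) and 0.163 (Runx3) upwards in edgeR (unadjusted 0.0236 and 0.0423, the only others under 0.05), and ranges of 0.03 log2 units (Cbfb) to 0.21 (Runx1). The median range over the members was 0.11 log2 units. Over all tested genes it was 0.17, but ranges were wider at lower levels, and the members' median level was 87.9 CPM, against 27.0 CPM over all tested genes. Tested genes in the same band of level, with a median of 73.9 CPM, had the same median range of 0.11.

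**Figure D4:**
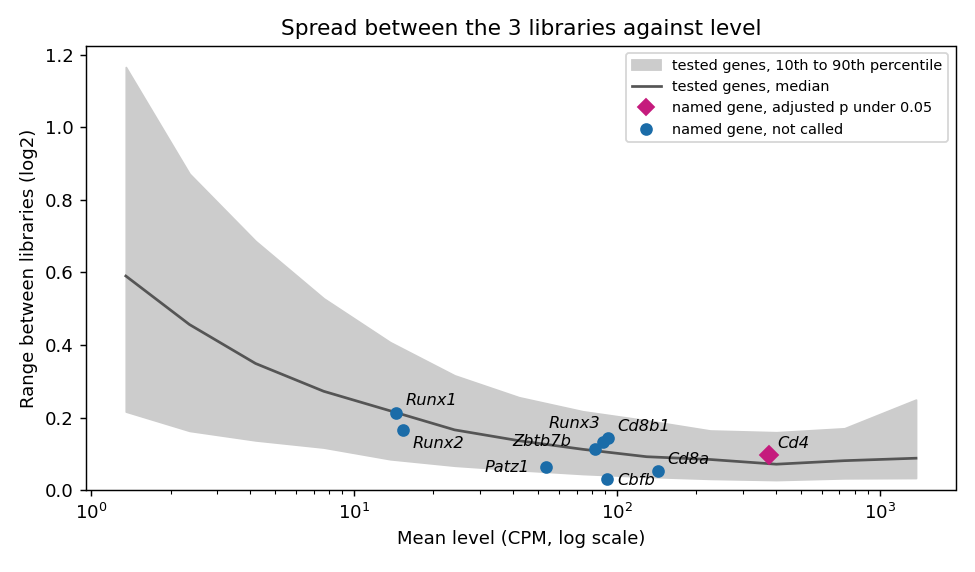
Range between the highest and lowest of the 3 libraries (log2) against mean level in CPM (log axis) for the 9 genes, with the median (line) and the 10th to 90th percentile (band) of the tested genes of like level. Cd4 (diamond) is the member called as varying, with a range of 0.10, Runx1 lies at 0.21 at a low level, and Cbfb is below the band at 0.03.

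The replicates that were high or low were not the same for all members. Cd4 and Cd8b1 were lowest in replicate 1, where Zbtb7b, Runx3, Runx1 and Runx2 were highest. Cbfb was also lowest in replicate 1, while Cd8a was lowest and Patz1 highest in replicate 2. Apart from Cd4 none of these genes was called as varying, so their order may be counting noise. Rn18s-rs5, annotated as a ribosomal RNA pseudogene and the most abundant non-mitochondrial gene named here, stood at 10918, 9686 and 8858 CPM in replicates 1, 2 and 3, so it was also highest in replicate 1. Its part in these differences was not tested.

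Around the 9 genes, 57 genes of the lineage decision were read from 5 lists. Of these 55 were tested and 11 varied between libraries. All 11 were among the 29 listed genes of at least 100 CPM, of which they made up 37.9%, against the 33.9% called among all tested genes of that level. The listed genes of that level were thus called at a share near the background. The median level of all 57 listed genes was 27.2 CPM per kilobase of exon, against 17.6 for the 9 members and 8.37 for all tested genes with a length. The lists were chosen with earlier results of these data known.

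The T cell receptor complex and the partners of the coreceptors formed the list with the highest levels, a median of 95.4 CPM per kb over 8 genes. Lck, the kinase that both coreceptors carry, was at 178 ± 3.96 CPM per kb, the receptor kinase Zap70 at 133 ± 7.22, the receptor chain Cd3e at 102 ± 5.01 and the adaptor Lat at 98.0 ± 5.78 (SD, n = 3). All 8 genes lay above 100 CPM, where 33.9% of all tested genes were called. Of the 8, 5 varied between libraries (Cd3e, Lck, Zap70, Lat and Thy1). Cd3e had 393, 429 and 428 CPM in replicates 1, 2 and 3, and like Cd4 it was lowest in replicate 1 (adjusted p = 3.31e-07 in edgeR). Zap70 had 405, 374 and 415 CPM, with its lowest level in replicate 2.

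Factors that act upstream of or beside ThPOK and Runx3 were all present, 16 of 16 above 1 CPM and 11 above 100 CPM, with a median of 23.4 CPM per kb. Tcf7 (TCF-1, a T cell identity factor) stood at 226 ± 4.17 CPM per kb, Ikzf1 (Ikaros) at 91.7 ± 1.18, Ets1 at 87.9 ± 1.45 and Stat5a (a signal transducer of IL-7 and IL-2) at 79.8 ± 2.53. Of the 16, all tested, 2 varied between libraries (Zbtb7a and Stat5a). Both lay above 100 CPM, where 33.9% of all tested genes were called.

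Cofactors and chromatin regulators known to work with Runx factors or at the coreceptor genes had a median of 13.3 CPM per kb over 16 genes. Chd4, the ATPase of the NuRD complex, was at 151 ± 2.71 CPM per kb, Smarca4 (BRG1, the ATPase of the BAF complex) at 78.1 ± 1.44, Aes (a Groucho family member) at 46.3 ± 2.30 and the maintenance DNA methyltransferase Dnmt1 at 40.1 ± 0.19. The 1 gene of the list under 1 CPM, named after its value was seen, was Cbfa2t3 at 0.54 ± 0.12 CPM. Of the 15 tested genes of the list, 2 varied (Tle3 and Aes). Both lay above 100 CPM, where 33.9% of all tested genes were called.

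Genes typical of CD4 helper and of CD8 effector cells were both present. The 6 CD4 helper and regulatory genes had a median of 36.5 CPM per kb, with Tnfrsf4 (OX40) at 212 ± 11.5, Icos (a costimulatory receptor) at 65.1 ± 2.23, the regulatory T cell factor Foxp3 at 37.2 ± 1.79 and Izumo1r (folate receptor 4, listed as Folr4) at 35.8 ± 0.85. Of the 6, Foxp3 and Tnfrsf4 varied, both above 100 CPM, where 33.9% of all tested genes were called. The 11 CD8 and cytotoxic genes had a median of 2.92 CPM per kb, with Nkg7 (a granule protein) at 41.1 ± 3.18, Tbx21 (T-bet) at 34.1 ± 1.22, Gzmb (granzyme B) at 31.1 ± 0.92 and Eomes at 4.22 ± 0.38. In edgeR 0 of the 10 tested genes of that list were called after adjustment, against 13.7% of all tested genes, and 3 had an unadjusted p under 0.05. Of the 11 genes 0 reached 100 CPM, where the test is more sensitive, so their calls cannot be compared with those of the CD4 list. The only one under 1 CPM, again named after its value was seen, was Gzma (granzyme A) at 0.42 ± 0.23 CPM. Several of these genes are not restricted to one lineage, since activated helper cells can express Tbx21 and Gzmb. Genes of the CD4 list need not be restricted to helper cells either. The medians of the lists therefore do not measure the shares of helper and CD8 cells.

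**Figure D5:**
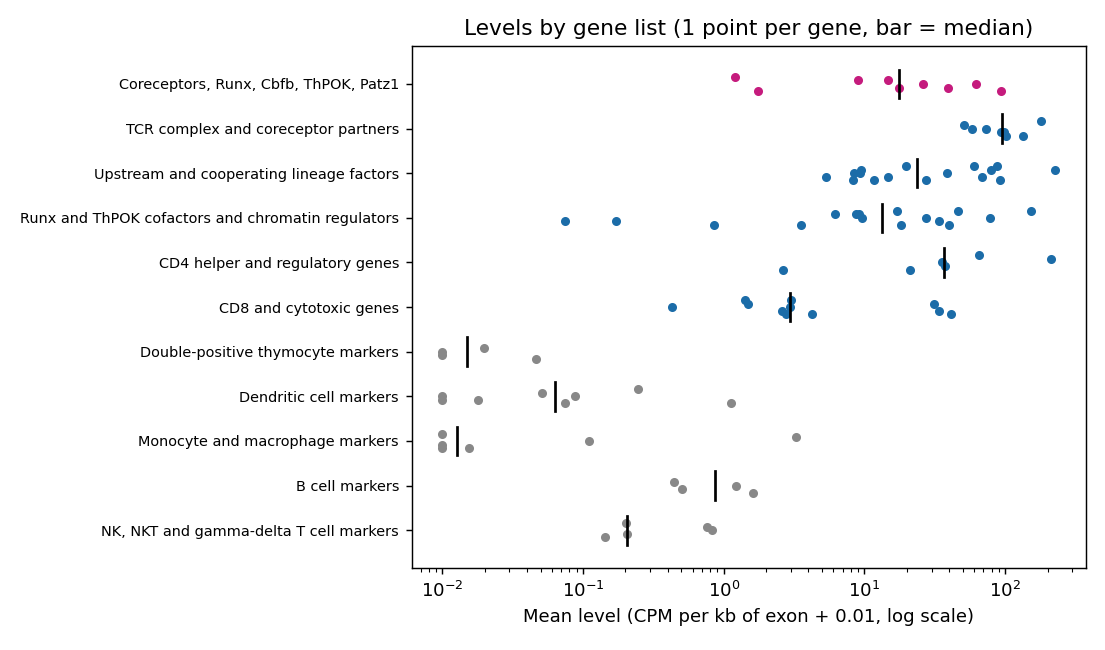
Mean level in CPM per kilobase of exon, with 0.01 added and on a log axis, for the 9 genes (top row), the 5 lists of the lineage decision and 5 lists of markers of other cells, 1 point per gene and a bar at the median. The 9 genes have a median of 17.6 CPM per kb, and the medians of all 5 marker lists lie under 1 CPM per kb.

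Over the 3 libraries the listed genes nearest to Cd4 in level per kilobase were Cd3d (root mean square difference 0.04 log2 units) and Ikzf1 (0.05). Nearest to Cd8a were Tcf3 (0.01) and Dnmt1 (0.04), to Zbtb7b its paralogue Zbtb7a (0.09) and Hdac2 (0.21), and to Runx3 Hdac2 (0.09) and Hdac3 (0.11). The search covered the 57 listed genes and describes likeness of level only.

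Cells other than mature CD4 or CD8 T cells can also carry coreceptor transcripts. Double-positive thymocytes have both, and their 4 markers summed to 0.158 to 0.420 CPM over the libraries, with Rag2 and Ptcra at no read in any. Dendritic cells can carry CD4 or the CD8 alpha chain. Their 8 markers summed to 9.79 to 12.5 CPM, most of it Zbtb46 (mean 9.49 ± 1.22 CPM), with Clec9a and Cd209a at no read. The 6 monocyte and macrophage markers summed to 3.63 to 4.55 CPM, almost all of it Cd68, with Csf1r, C1qa and Fcgr1 at no read. The 4 B cell markers summed to 12.9 to 14.4 CPM. The 5 markers of NK, NKT and gamma-delta T cells summed to 7.81 to 8.49 CPM, and none of them was without reads in every library. Cd8a stood at 140 to 144 CPM and Cd4 at 364 to 387 CPM. The marker sums are not scaled for length and do not measure how much coreceptor RNA such cells carry. The part of such cells in the coreceptor levels was not tested.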

How the data were processed

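RNA-seq of 3 libraries in 1 group was analysed. The authors deposited raw read counts per gene symbol, with no normalization that the values show. The genome build is mm10, per the submitters' processing notes; for the aligner, counter, gene annotation and use of strand: not given in the sources used here. The 9 genes, the lists, the ratios and the rule for named genes were chosen with earlier results of these data known. Named were the 9 members, the 4 highest genes per kilobase of each pathway list, any with no read, and the 2 listed genes nearest in level to Cd4, Cd8a, Zbtb7b and Runx3.

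CPM was computed from column totals. Exon lengths and positions came from GENCODE vM21 (GRCm38, the assembly of mm10), which matched 30999 of 44788 symbols by name and all listed genes, and Izumo1r and Adgre1 were found under older symbols. Ratios had 0.5 added to each count, with exact Clopper-Pearson 95% intervals for shares and an exact sign-flip test over libraries. With no contrast between groups, the quasi-likelihood test could not be used. Variation between libraries was tested with edgeR 4.0.16 (TMM scaling, a glmFit likelihood-ratio test at dispersion 0, p-values adjusted by Benjamini-Hochberg) over genes with 1 CPM or more in 2 or more libraries, and the procedure was tested on simulated data. DESeq2 1.42.0 size factors, unscaled totals, other filters, other lengths and each library left out were the alternatives. Computing used Python 3.11.15 (pandas 2.3.3, scipy 1.17.1, matplotlib 3.10.9, numpy 2.4.6) and R 4.3.3.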

Additional observations from a re-analysis of the deposited data

How the results depend on the processing

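No paired analysis was possible because all 3 libraries received the same treatment. The count of genes varying between libraries was 1847; DESeq2 size factors, unscaled totals and other filters gave 1668 to 1848, and leaving out a library gave 742 to 1193, with fewer libraries in the test. Per kilobase of exon the log2 ratio of Cd8a to Cd8b1 reversed to -0.66 and that of Cbfb to the Runx sum to 0.35, and per kilobase of the longest transcript to -0.45 and 0.20. Runx1 to Runx2 moved to -0.53 per kilobase of exon and reversed to 0.053 per kilobase of the longest transcript. The length used is the whole of these changes, since the reads are the same. The other log2 ratios did not change sign. By exon length and by longest transcript they were 0.58 and 0.96 for Cd4 to Cd8b1, -0.25 and -0.25 for Zbtb7b to Runx3, 0.71 and 0.40 for Zbtb7b to Patz1, -2.66 and -2.67 for Zbtb7b to Cd4, -1.16 and -1.01 for Runx3 to Cd8a, -3.87 and -3.20 for Runx1 to Runx3, 3.34 and 3.25 for Runx3 to Runx2, and -2.12 and -1.66 for Patz1 to Cd8a, while Cd4 to Cd8a was 1.25 per kilobase of exon. With 0.1 added to each count, each of the 12 ratios stayed within 1 SD of its value. The same held with 1 library left out. Leaving out 1 of 3 values cannot move their mean by 1 SD of those values, so that setting could not show instability. Without Rn18s-rs5 and the 35 mitochondrial genes in the library totals, all 9 levels in CPM rose, the highest being Cd4 at 388.5 CPM. Smaller totals raise every gene of a library by the same factor. For 4 of the 9 the rise was more than 1 SD, which depends on how small the SD of the gene was. Depth limits Runx1 and Runx2 most, with 171 to 306 reads a library.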
